A study of Mus musculus with 12 samples.

Results

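Folate enters cells through receptors and carriers and is held and used there by a small group of enzymes, and 8 genes of this system were followed in bulk RNA of rhabdomyosarcoma (RMS) tumors. They were the receptors *Folr1* and *Folr2*, the carriers *Slc19a1* and *Slc46a1*, the polyglutamate enzymes *Fpgs* and *Ggh*, and the cytosolic enzymes *Mthfd1* and *Shmt1*. The genes were chosen by role, because the nanoparticles that carry the drug RCM1 in this model bear folic acid. They are 8 of the 38898 genes with a transcript in the data, and 7 of them were among the 17602 genes with enough counts to be tested. *Folr1* was not.

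RNA was sequenced from 12 tumors grown from Rd76-9, a murine RMS line, in the flank of young adult wild-type mice of strain C57/Bl6J, and all were collected 16 days after inoculation. There were 3 tumors in each of 4 groups, each tumor from its own mouse. Mice of the vehicle group (m1, m2 and m3) received saline and empty nanoparticles, which in this study also bore folic acid. The VCR group (m4, m5 and m6) received vincristine, a drug that blocks microtubules, at 0.25 mg/kg. The RCM1-NP FA group (m7, m8 and m9) received RCM1, an inhibitor of the transcription factor FOXM1, in folic acid nanoparticles at 8 µg per injection. The VCR + RCM1-NP FA group (m10, m11 and m12) received both drugs at these doses. Whether mice of the VCR group also received empty nanoparticles is not given in the sources used here. The treatment label of the vehicle tumors also names RCM1, and the group was taken from the titles and the design text. The model is a graft of 1 cell line under the skin of a host with an intact immune system. RNA was extracted from bulk tumor, so RNA of host cells was measured together with RNA of tumor cells. The estimated counts came to between 29342195 and 32108055 per tumor.

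As background, the receptors bind folic acid at the cell surface and are taken up with it, and FOLR1 is best known from epithelia and their cancers, while FOLR2 is best known from macrophages. The carriers move folates across membranes without that step. FPGS adds a chain of glutamates that keeps folate inside the cell, GGH removes it, and MTHFD1 and SHMT1 load and convert the carbon units that folate carries for the synthesis of purines, thymidylate and methionine.

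The tumors held transcripts of the myogenic lineage, with *Cdh15* at 78.1 to 116 TPM and *Myf5* at 38.8 to 59.9 TPM, while *Myod1* reached at most 2.19 TPM and *Pax7* was at or near 0. TPM, a share of all transcripts corrected for their length, is the scale on which levels of different genes are compared here. Macrophage markers were abundant. All 9 genes of the macrophage list had counts in every tumor, the most abundant was *C1qa* at 661 to 1048 TPM, and the list summed to between 2289 and 3432 TPM. Epithelial markers were scarce, with *Krt8*, the most abundant of 6, at 0.953 to 9.58 TPM and *Epcam* at 0.0266 to 1.39 TPM. Transcripts of mature muscle fibres differed widely between tumors, and the list summed to 17.1 TPM in m2 and to 18874 TPM in m9.

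In the mean over the 12 tumors the order of levels was *Mthfd1* at 60.2 TPM, *Shmt1* at 42.6, *Folr2* at 40.1, *Fpgs* at 34.7, *Slc19a1* at 24.7, *Ggh* at 14.0, *Slc46a1* at 4.30 and *Folr1* at 0.132 TPM. Most neighbours in this order were apart in 12 of 12 tumors. The exceptions were *Shmt1* over *Folr2* and *Folr2* over *Fpgs*, each in 8 of 12 tumors, while *Shmt1* lay over *Fpgs* in 12 of 12. By group mean these 3 genes changed places, and the other 5 members kept theirs. In vehicle-treated tumors the order was *Shmt1*, *Fpgs*, *Folr2*, after RCM1-NP FA *Folr2*, *Shmt1*, *Fpgs*, and in the combination group *Shmt1*, *Folr2*, *Fpgs*. After VCR *Folr2* and *Shmt1* were level, each at a mean of 41.2 TPM, with *Fpgs* below them. In that group *Folr2* lay above *Shmt1* in m5 only. *Folr2* varied most among the 7 members tested, with a coefficient of variation (CV) of 24.1% in TPM, against a median of 15.2% over all genes tested. The other 6 had a CV of between 6.62% (*Fpgs*) and 12.8% (*Slc46a1*), below that median.

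**Figure D1:**
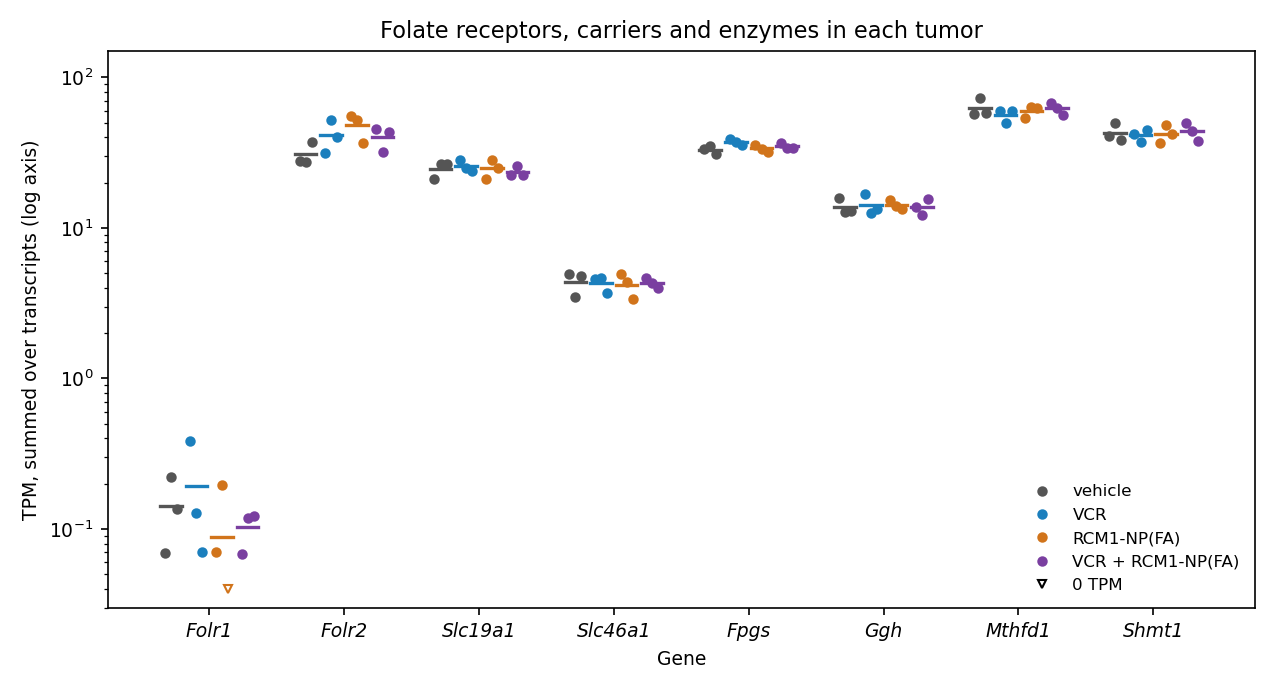
TPM of the 8 folate genes in each tumor, on a log axis, with 1 point per tumor and a bar at the mean of each group of 3. *Folr1* lies under 0.5 TPM in each tumor, at 0 in m9 (open triangle), while the other genes lie between 3.35 and 72.7 TPM.

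In the edgeR test, 1 of the 7 members, *Fpgs*, passed the threshold of an adjusted p under 0.1 in VCR against vehicle, where 5.72% of all genes tested did. No member passed in RCM1-NP FA against vehicle or in VCR + RCM1-NP FA against vehicle, and of all genes 0% did. The same count of 0 held for the combination against each single drug and for the interaction of the drugs, again with 0% of all genes. At an unadjusted edgeR p under 0.05 there was 1 member in VCR, 1 in RCM1-NP FA, 0 in the combination against vehicle, 1 in the combination against VCR, 0 against RCM1-NP FA and 2 in the interaction. Of all genes tested, 22.1%, 9.78%, 7.31%, 5.26%, 2.07% and 13.8% reached it in these comparisons, in that order. In the 5 comparisons other than VCR against vehicle, limma-voom and the Wald test of DESeq2, the paper's own test, also passed 0 members. Limma-voom passed 0% of all genes in these 5, and 3.87% in VCR against vehicle. DESeq2 on all 12 tumors passed 1.52% of all genes for RCM1-NP FA and 0.362% for the combination against vehicle, 2.84% in the interaction, and 0% for the combination against each single drug. With only the groups compared, DESeq2 passed 0.161% for RCM1-NP FA and 1.15% for the combination against vehicle, 0.254% for the combination against VCR and 0.107% against RCM1-NP FA. Groups did not overlap in CPM (counts scaled to library size) for 1 of 7 members in VCR against vehicle, where 24.4% of all genes were so separated. For the RCM1-NP FA and the combination groups the count was 0 of 7 and 0 of 7, against 11.4% and 12.6% of all genes. In the combination against VCR it was 1 of 7 and against RCM1-NP FA 0 of 7, where 12.9% and 5.88% of all genes were separated. Leaving out 1 tumor moved the count of all genes past the threshold in edgeR. In VCR against vehicle it went from 1006 to 0 without m2, m4 or m5, 1 without m11, 243 without m12, 281 without m1, 525 without m10 and 2012 without m6. The count of 0 became 8 without m3 for RCM1-NP FA and 44 without m9 for the combination against vehicle, and 1 without m7 in the interaction, with 0 members among them. The comparisons against vehicle share the vehicle-treated tumors, and those of the combination share m10, m11 and m12.

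The receptors differed most in level. *Folr1* had 1, 3 and 2 counts in the vehicle-treated tumors, 6, 2 and 1 in the VCR group, 1, 3 and 0 in the RCM1-NP FA group, and 1, 2 and 2 in the combination group. With 24 counts in all and 3 or fewer in 11 of 12 tumors, it was at the limit of what this depth can show, and no fold change is given. *Folr2* had 8750 counts in all, and its lowest TPM in any tumor was 71.4 times the highest TPM of *Folr1*. The 2 genes lie side by side on the minus strand of chromosome 7 in GRCm38, *Folr2* at chr7:101839988-101857190 and *Folr1* at chr7:101858331-101870788, with 1140 bases between them. In bulk RNA, fewer cells of a type and less RNA per cell cannot be told apart, and this holds for each level and difference given here.

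*Folr2* was at 27.8, 27.4 and 37.4 TPM in vehicle-treated tumors and at 31.6, 52.1 and 40.0 TPM after VCR. After RCM1-NP FA it was at 55.6, 51.9 and 36.9 TPM, and after the combination at 45.3, 32.1 and 43.4 TPM. The highest vehicle-treated tumor, m3, lay above m4, m9 and m11, and in CPM also above m6, so each treated group overlapped with vehicle. The log2 fold change after RCM1-NP FA was 0.66 (SE 0.24, 95% interval 0.14 to 1.19), with an adjusted edgeR p of 0.437 and an unadjusted one of 0.0182. After VCR it was 0.49 (SE 0.24, interval −0.036 to 1.02, adjusted edgeR p 0.255), and after the combination 0.36 (SE 0.24, interval −0.16 to 0.89, adjusted edgeR p 0.756). Without m5 the value for VCR was 0.24, and without m3 that for the combination was 0.59. None of these passed, and the intervals leave room for more than a doubling after RCM1-NP FA as well as for a small difference. The interaction, which asks whether the combination differs from the sum of the single drugs, was −0.79 (SE 0.34, interval −1.54 to −0.047), with an adjusted edgeR p of 0.341. The exact permutation p of log2 CPM was 0.3 for VCR, 0.2 for RCM1-NP FA and 0.2 for the combination, where 3 against 3 tumors allow no p below 0.1.

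Markers of the cells that could hold *Folr2* were set beside it. The macrophage list summed to 3321, 2289 and 2456 TPM in vehicle-treated tumors, 2715, 2732 and 2676 TPM after VCR, 2733, 2771 and 2479 TPM after RCM1-NP FA, and 2385, 2980 and 3432 TPM after the combination. The vehicle-treated tumor m1 was thus among the richest in macrophage markers and among the poorest in *Folr2*. As a percent of the list's TPM, *Folr2* ranged from 0.836 in m1 to 2.04 in m7. Across the 12 tumors *Folr2* had a Pearson r of 0.218 with the list (permutation p 0.494, adjusted 0.827 over 24 relations) and a Spearman rho of 0.210 (permutation p 0.512, adjusted 0.955). These correlations are of log2 CPM. Without m2 and m12, the tumors farthest from the median of the list in CPM, r was −0.157, and within groups it was 0.184.

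Markers of tissue-resident macrophages summed to 164, 209 and 166 TPM in vehicle-treated tumors, 215, 292 and 207 TPM after VCR, 242, 299 and 214 TPM after RCM1-NP FA, and 205, 157 and 242 TPM after the combination. Of its 7 genes, 6 had a count in every tumor, *Pf4* was the most abundant, and *Timd4* was at 0 in m2. Fibroblast markers, 4 genes led by *Col1a1*, summed to 180, 137 and 140 TPM in vehicle-treated tumors, 259, 260 and 232 TPM after VCR, 336, 244 and 193 TPM after RCM1-NP FA, and 279, 210 and 287 TPM after the combination. The relations of the 7 members tested with these lists, 14 in all, were examined after seeing the data. *Folr2* had an r of 0.717 with the tissue-resident list (permutation p 0.00858, adjusted 0.0601) and a rho of 0.657 (permutation p 0.0247, adjusted 0.115), so r passed the threshold and rho did not. Of all genes tested, 0.426% had an r at least as strong. By gene, the r was uneven, at 0.867 for *Cbr2*, 0.762 for *F13a1*, 0.550 for *Pf4* and 0.504 for *Cd163*. It was 0.478 for *Lyve1*, 0.211 for *Mrc1* and 0.130 for *Timd4*. With the fibroblast list r was 0.747 (permutation p 0.0063, adjusted 0.0601) and rho 0.727 (permutation p 0.00992, adjusted 0.0694), and both passed, where 1.23% and 2.26% of all genes had a value at least as strong. A mean of 87.9% of this list's TPM was *Col1a1*, which had an r of 0.752 with *Folr2*. The r was 0.457 for *Dcn*, 0.302 for *Lum* and −0.124 for *Pdgfra*. It was 0.390 for the list without *Col1a1*, so the relation rests mostly on 1 gene. Within groups the r was 0.649 and 0.600, and it was 0.692 leaving out m8 and m11, the most distant in the tissue-resident list, and 0.771 leaving out m2 and m3, those of the fibroblast list. Without m5 and m9 it was 0.671 and 0.748, with an adjusted permutation p of 0.224 and 0.212, past the threshold in neither. Of the other members, *Fpgs* passed with the fibroblast list in rho (0.734, adjusted permutation p 0.0694, with 1.96% of all genes at least as strong) and not in r (0.611, adjusted permutation p 0.158). Endothelial markers, 5 genes led by *Cdh5*, had a mean of 55.5 TPM in vehicle-treated tumors, with 65.3 TPM in m1. It was 69.4 TPM after VCR, 69.5 TPM after RCM1-NP FA and 69.0 TPM after the combination. Neither the relation of this list to *Folr2* nor which cells held *Folr2* was tested. Among all genes tested, those most like *Folr2* over the 12 tumors were *Ndrg4* (Pearson r 0.93), *Ctsf* (0.90) and *Mxra7* (0.89), given as a description.

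kallisto placed most of the *Folr2* signal on 1 of its 3 transcripts, NM_008035.2, with a mean of 83.0% of the gene's TPM, and 16.9% on NM_001303231.1. A noncoding gene on the opposite strand, *Gm10602*, overlaps the end of *Folr2* and was at a mean of 3.21 TPM. Reads of the 2 strands may not be told apart in these libraries.

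*Slc19a1*, the reduced folate carrier and the main entry route of folates and antifolates in most cells, was at 20.99, 26.6 and 26.7 TPM in vehicle-treated tumors and at 28.0, 25.0 and 23.96 TPM after VCR. It was at 21.1, 28.3 and 25.0 TPM after RCM1-NP FA and at 22.3, 25.8 and 22.4 TPM after the combination. All 4 groups overlapped, and the lowest tumors, m1 and m7, came from different groups. Log2 fold changes against vehicle were 0.11 for VCR (interval −0.21 to 0.44), 0.023 for RCM1-NP FA (interval −0.30 to 0.35) and −0.074 for the combination (interval −0.40 to 0.25). The adjusted edgeR p was 0.697, 0.979 and 0.928 in that order. The gene lies on the plus strand at chr10:77032269-77050432, and kallisto spread it over many transcripts, with a mean of 43.9% of TPM on NM_031196.3. Its most similar genes were *Hdac3* (r 0.97), *Ncln* (0.94) and *Ahcy* (0.93), the last of them an enzyme of the methionine cycle.

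*Slc46a1*, the proton-coupled folate transporter, works best at acid pH and was the lower of the carriers in every tumor. It was at 4.90, 3.47 and 4.79 TPM in vehicle-treated tumors, 4.57, 4.65 and 3.67 TPM after VCR, 4.91, 4.35 and 3.35 TPM after RCM1-NP FA, and 4.64, 4.31 and 4.02 TPM after the combination. The groups overlapped in a narrow range, with the lowest values in m2, m6 and m9. Log2 fold changes against vehicle were 0.037 (interval −0.42 to 0.49) for VCR, −0.040 (−0.49 to 0.41) for RCM1-NP FA and −0.042 (−0.50 to 0.41) for the combination. None of the adjusted edgeR p-values was below 0.937. With 113 to 175 counts per tumor it was the least covered of the members tested, and its intervals were wider than those of all members but *Folr2*. It lies on the plus strand at chr11:78465701-78471945, with a single transcript in the data. Its most similar genes were *Araf* (r 0.88), *Ubtd1* (0.86) and *Lenep* (0.86).

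*Fpgs*, which encodes the synthase that adds glutamates to folate and to antifolates, was at 33.4, 34.8 and 30.7 TPM in vehicle-treated tumors and at 39.1, 37.0 and 35.7 TPM after VCR. The 3 tumors treated with VCR lay above the 3 vehicle-treated tumors. It was at 35.5, 33.6 and 32.03 TPM after RCM1-NP FA and at 36.7, 33.8 and 33.7 TPM after the combination, and both of these groups overlapped with vehicle. *Fpgs* rose after VCR by a log2 fold change of 0.25 (SE 0.074), which is 1.19-fold with a 95% interval of 1.07 to 1.33, at an adjusted edgeR p of 0.0992. The exact permutation p was 0.1, the smallest that 3 against 3 tumors allow.

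The *Fpgs* call sat at the threshold and was lost in most other fits, while the log2 fold change was 0.22 to 0.29 in all 21 of them. The adjusted p was under 0.1 in 4 of the 21 alternative fits and ranged from 0.0421 with DESeq2 on all 12 tumors to 0.339 without m5. Without m1, m2, m3, m4 or m5 it was 0.182, 0.197, 0.120, 0.270 and 0.339 in edgeR. Without m7, m8, m10, m11 or m12, tumors that are not in the comparison but share its estimate of the spread, it was 0.106, 0.109, 0.134, 0.143 and 0.126 in edgeR. After RCM1-NP FA the log2 fold change was 0.060 (interval −0.10 to 0.22, adjusted edgeR p 0.841), and after the combination 0.068 (interval −0.094 to 0.23, adjusted edgeR p 0.8497). The combination against VCR gave −0.18 (SE 0.074, interval −0.35 to −0.024), with an adjusted edgeR p of 0.855 and an unadjusted one of 0.0282, and the interaction gave −0.25 (SE 0.10, interval −0.47 to −0.017, adjusted edgeR p 0.339). The combination and VCR groups did not overlap in CPM (exact permutation p 0.1), while in TPM they did.

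Transcripts of mature muscle fibres were also higher in every VCR tumor than in any vehicle-treated tumor. Every tumor of the combination group lay above the vehicle-treated tumors as well, unlike for *Fpgs*, and this group overlapped with VCR. RCM1-NP FA overlapped with vehicle, and a difference between groups was not tested. The list of 10 genes, led by *Acta1*, summed to 113, 17.1 and 19.9 TPM in vehicle-treated tumors, 3770, 10828 and 1658 TPM after VCR, 111, 189 and 18874 TPM after RCM1-NP FA, and 2141, 4627 and 421 TPM after the combination. In m9, the tumor with the most muscle fibre RNA, *Fpgs* was at 32.03 TPM, beside 35.5 in m7 and 33.6 in m8. Whether muscle fibre RNA bears on the difference in *Fpgs* was not tested. Across the 12 tumors *Fpgs* had a Pearson r of 0.389 with this list (permutation p 0.217, adjusted 0.578) and a Spearman rho of 0.147 (permutation p 0.652, adjusted 0.955), and r was 0.258 without m2 and m3 and −0.41 within groups. Without m5 and m9 the log2 fold change of *Fpgs* after VCR was 0.22, with an adjusted edgeR p of 0.336. *Fpgs* lies on the minus strand at chr2:32682609-32704196, and its end shares 61 bases with *Eng*, a gene of the plus strand at a mean of 19.5 TPM. Its most similar genes were *Tmem208*, *Pelo* and *Lypla2*, each at r 0.94.

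*Ggh*, whose product removes the glutamates in the lysosome, was at 15.7, 12.8 and 12.9 TPM in vehicle-treated tumors, 16.8, 12.6 and 13.3 TPM after VCR, 15.4, 14.1 and 13.4 TPM after RCM1-NP FA, and 13.7, 12.2 and 15.5 TPM after the combination. The groups overlapped, and each held at least 1 tumor above 15 TPM. Log2 fold changes against vehicle were 0.11 (interval −0.21 to 0.43), 0.082 (−0.24 to 0.40) and −0.0021 (−0.33 to 0.32), with adjusted edgeR p-values of 0.704, 0.904 and 0.999. *Ggh* was the member with the highest positive r with the macrophage list, 0.585 (permutation p 0.0451, adjusted 0.271 over 24 relations), with a rho of 0.601 (permutation p 0.0423, adjusted 0.254). The r was 0.353 without m2 and m12 and 0.633 within groups, and the adjusted p did not pass. *Mthfd1* had an r of −0.607 with the list (permutation p 0.0352, adjusted 0.271) and *Shmt1* one of −0.528 (permutation p 0.0776, adjusted 0.372), and these did not pass either. The gene lies on the plus strand at chr4:20041997-20066111, and its most similar genes were *Gm34502* (r 0.89), *Paxx* (0.88) and *Elfn2* (0.87).

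**Figure D2:**
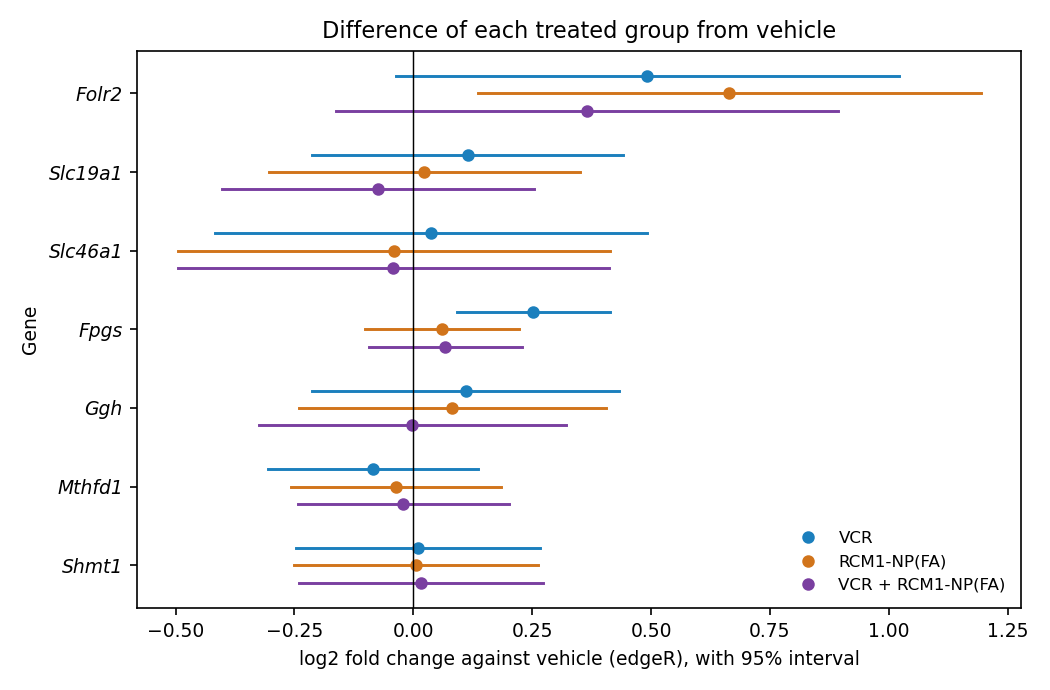
Log2 fold change of each treated group against vehicle for the 7 genes tested, with bars for the 95% interval of the edgeR fit of 12 tumors. The intervals that leave out 0 belong to *Fpgs* with VCR (0.091 to 0.41) and *Folr2* with RCM1-NP FA (0.14 to 1.19), of which only the first passed the adjusted threshold.

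*Mthfd1*, a cytosolic enzyme with several activities that interconvert forms of folate, was the most abundant member in every group. It was at 56.8, 72.7 and 57.7 TPM in vehicle-treated tumors, 59.4, 50.04 and 59.7 TPM after VCR, 53.6, 63.3 and 62.4 TPM after RCM1-NP FA, and 67.9, 62.1 and 56.5 TPM after the combination. Groups overlapped, with the highest value in m2 and the lowest in m5. Log2 fold changes against vehicle were −0.085 (interval −0.31 to 0.14) for VCR, −0.036 (−0.26 to 0.18) for RCM1-NP FA and −0.021 (−0.24 to 0.20) for the combination, with adjusted edgeR p-values of 0.664, 0.945 and 0.976. The gene spans chr12:76254406-76319820 on the plus strand, and 99.6% of its TPM was on 1 transcript, NM_138745.2.

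*Shmt1*, which takes a carbon unit from serine, was at 40.7, 49.7 and 38.5 TPM in vehicle-treated tumors, 42.3, 37.1 and 44.3 TPM after VCR, 36.4, 47.8 and 42.2 TPM after RCM1-NP FA, and 49.8, 44.2 and 37.7 TPM after the combination. Its groups overlapped as well. Log2 fold changes were 0.0095 (interval −0.25 to 0.27), 0.0054 (−0.25 to 0.26) and 0.016 (−0.24 to 0.27), with adjusted edgeR p-values of 0.974, 0.994 and 0.984. All 3 of these 95% intervals lie within a change of 1.21-fold in either direction. The gene lies on the minus strand at chr11:60788897-60811265.

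*Mthfd1* and *Shmt1* varied together from tumor to tumor. Over the 12 tumors their log2 CPM had a Pearson r of 0.869 (permutation p 0.00023, adjusted 0.00483 over the 21 pairs of members tested) and a Spearman rho of 0.888 (permutation p 0.00028, adjusted 0.00588). The r was 0.912 within groups and 0.827 without m7 and m8. It was the only one of the 21 pairs past the threshold, and these pairs were examined after seeing the data. Of all pairs of genes tested, 0.300% had an r at least as strong, as did 26 genes with *Mthfd1* and 41 with *Shmt1*. Tumors high in both in CPM were m2, m8 and m10, each from a different group, and tumors low in both were m1, m5, m7 and m12. Among all genes, those most like *Mthfd1* were *Xrcc6* (r 0.95), *Gm52314* (0.94) and *Parp1* (0.93), and those most like *Shmt1* were *Jpt2* (0.96), *Gm46530* (0.95) and *Rfc4* (0.93).

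**Figure D3:**
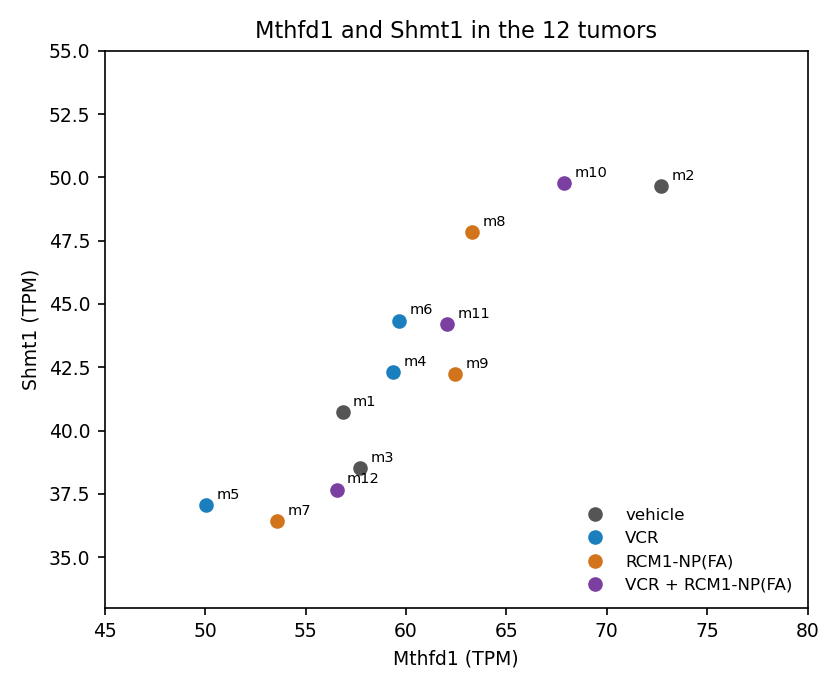
*Shmt1* against *Mthfd1* in TPM, with 1 point per tumor labelled by mouse and coloured by group. The tumors with the highest values of both, m2, m8 and m10, come from 3 groups, as do those with the lowest, m5, m7 and m12.

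Both genes were set against a list of 10 proliferation genes, led by *Pcna*, whose TPM summed to between 1241 in m3 and 1778 in m2. *Shmt1* had a Pearson r of 0.808 with the list (permutation p 0.00159, adjusted 0.0382 over 24 relations) and a Spearman rho of 0.769 (permutation p 0.00483, adjusted 0.116). Of all genes tested, 1.13% had as strong an r with this list. After adjustment the r over the 12 tumors passed the threshold and the rho did not. The r was 0.808 without m3 and m7 and 0.812 within groups, and these values were not set against the threshold. For *Mthfd1* the r was 0.632 (permutation p 0.0267, adjusted 0.271) and the rho 0.622 (permutation p 0.0351, adjusted 0.254), with an r of 0.731 without m3 and m7 and 0.650 within groups. None of the other 22 relations of members with the macrophage, proliferation and muscle fibre lists passed.

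Because these genes moved together, the 150 bases before a transcript start of each are shown, from RefSeq in GRCm38.p6, read 5′ to 3′ on the gene's own strand. Capitals mark CCAAT boxes, spelled as named, on either strand. They also mark GC boxes, which read GGGCGG, on either strand, and both motifs were chosen after the sequences were seen. *Shmt1* is from the minus strand at chr11:60811266-60811415 and *Mthfd1* from the plus strand at chr12:76255082-76255231. The *Mthfd1* stretch lies inside the gene's full span, which begins upstream of the start used.
Shmt1: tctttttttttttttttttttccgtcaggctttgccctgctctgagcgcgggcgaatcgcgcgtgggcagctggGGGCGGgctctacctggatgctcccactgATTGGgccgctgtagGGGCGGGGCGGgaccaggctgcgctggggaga
Mthfd1: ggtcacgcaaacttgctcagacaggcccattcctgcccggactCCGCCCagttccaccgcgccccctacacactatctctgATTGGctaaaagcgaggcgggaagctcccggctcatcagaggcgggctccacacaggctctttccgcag
*Shmt1* held 1 CCAAT box and 3 GC boxes, of which 2 overlap, and *Mthfd1* held 1 of each. *Fpgs*, which did not vary with them (r 0.017 with *Shmt1* and −0.22 with *Mthfd1*), held both boxes too, 2 of each. *Slc46a1* held 1 GC box, and *Slc19a1* held 2 before one start and none before another, both genes without a CCAAT box. *Folr2* held neither box. Of 32851 promoters of this length, 24.5% held a CCAAT box, 28.6% a GC box and 7.20% both, and a match is a description of the letters. Of the members, 6 had a promoter in the table used, and *Folr1* and *Ggh* had none. A search of the full 300 bases of these 6 for an E-box (CACGTG), for the E2F letters TTTGGCGC, TTTCGCGC, TTTCCCGC and TTTGCCGC, for a PU.1 core (GAGGAAGT), each on both strands, and for TATAAA on the gene's strand found none. Of all promoters 7.15%, 2.26%, 3.20% and 8.32% held them, in that order.

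The wider folate system, 31 other genes of which 27 were tested, gave 0 genes past the threshold in edgeR in each of the 6 comparisons. Against vehicle, an unadjusted edgeR p under 0.05 was reached by 4 of them in the VCR group, 2 in the RCM1-NP FA group and 0 in the combination group, beside 22.1%, 9.78% and 7.31% of all genes. Limma-voom also passed 0. After VCR, DESeq2 passed 4 of 25 with all 12 tumors, where 14.4% of all genes passed, and 1 of 27 with only the groups compared, where 7.82% did. It passed 0 of them in the other comparisons. The median log2 fold change of the 27 was −0.014 for VCR, −0.061 for RCM1-NP FA and 0.0043 for the combination, beside 0.0016, 0.0028 and 0.0016 over all genes. For the 7 members tested it was 0.11, 0.023 and −0.0021. Of the genes DESeq2 passed after VCR, 3 are named after their values were seen: *Mtr*, which encodes methionine synthase, and *Mthfd1l* and *Aldh1l2*, mitochondrial enzymes of formyl folate. Their edgeR log2 fold changes after VCR were −0.36 (SE 0.13), −0.29 (SE 0.11) and −0.90 (SE 0.36), with adjusted p-values of 0.149, 0.165 and 0.179.

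Among the most abundant genes of the 4 wider lists, *Atic*, *Shmt2* and *Ahcy* lay above each of the 8 members in every tumor. *Slc25a32*, the mitochondrial folate carrier, was at 10.2 to 15.0 TPM, close to *Ggh*. *Atic*, which acts late in purine synthesis, was at 118 to 151 TPM. The mitochondrial *Shmt2* was at 186 to 278 TPM, so in every tumor it exceeded its cytosolic counterpart *Shmt1*. *Ahcy* of the methionine cycle was at 145 to 183 TPM.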

How the data were processed

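RNA from 12 tumors in 4 groups of 3 was analysed. The authors prepared poly-A libraries, assigned reads to GRCm38 transcripts with kallisto and deposited, per transcript, estimated counts without normalization and TPM. The kit named in the labels keeps strand, but the same label says the libraries are not stranded. All 120299 transcripts were matched to RefSeq genes, estimated counts were summed per gene and rounded, and deposited TPM were summed per gene. Genes were kept by filterByExpr (minimum count 10), normalized by TMM and tested with edgeR 4.0.16 (quasi-likelihood F test, R 4.3.3) in one fit of 4 groups, with Benjamini-Hochberg adjustment and a threshold of 0.1, the paper's. The intervals are 95% intervals from the standard error of the fit. Single levels, as log2(CPM + 0.1), were compared by exact permutation of the tumors, and correlations by 100000 permutations, both two-sided, in Python 3.11.15 (scipy 1.17.1, numpy 2.4.6, pandas 2.3.3, with matplotlib 3.10.9 for figures). The tests were tried on simulated data, and no result of that trial is given here. Alternatives were DESeq2's size factors, other filters, fits of only the groups compared, offsets from effective transcript lengths, the Wald test of DESeq2 1.42.0, voom in limma 3.58.1, a threshold of 0.05 and leaving out tumors. Named genes are the members, genes of the other folate lists past the threshold or else the most abundant of each list, the 3 genes most like each member tested, and the most abundant and defining markers. The values of 1 other folate gene are not reported here. The members and lists were chosen with earlier results of these data known.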

Additional observations from a re-analysis of the deposited data

How the results depend on the processing

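The ranking of the 8 genes by level was the same in CPM per kilobase, and *Folr2* kept its direction against vehicle in each alternative, with log2 fold changes of 0.23 to 0.72 (VCR), 0.56 to 0.89 (RCM1-NP FA) and 0.26 to 0.59 (combination), none past the threshold. The 1 member called after VCR became 0 with DESeq2's size factors, no filter, only the groups compared, length offsets, limma-voom, the DESeq2 test of only the groups compared, a threshold of 0.05 and without m5 and m9, and was 0 to 1 leaving out single tumors. The 0 other folate genes called after VCR became 1 at a mean count of at least 50, 4 with DESeq2 on 12 tumors and 1 with DESeq2 on the groups compared, and were 0 to 2 leaving out single tumors. Of all genes, 1226 of 13080 were called at that mean count, and 14.4% and 7.82% in the 2 DESeq2 tests. Without m1, where 2 other folate genes were called, 281 of 17964 were. Without m3, where 1 was called, 1288 of 18020 were. The 1006 genes of the whole data called after VCR ranged from 0 without m2, m4 or m5 to 2215 with DESeq2 on 12 tumors. Without m5 and m9, 138 genes were called for the combination against vehicle, where 0 had been.

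Some values changed sign, and for correlations only examples are given. Among correlations, within groups *Fpgs* with muscle fibre markers went from 0.389 to −0.41 and *Folr2* with them from 0.200 to −0.46. Without m2 and m3, *Mthfd1* with them went from −0.213 to 0.278. Without m2 and m12, *Folr2* with the macrophage list went from 0.218 to −0.157. *Shmt1* after VCR was −0.0058 with DESeq2's size factors, −0.00075 with no filter, −0.014 at a mean of 50, −0.0089 with only the groups compared, and −0.0024 and −0.0014 with DESeq2 on 12 tumors and on the groups compared. After RCM1-NP FA it was −0.0044 with no filter and −0.017 at a mean of 50. Without m5 and m9 *Slc46a1* was −0.065 for VCR and 0.11 for RCM1-NP FA, and r with muscle fibre markers was −0.032 for *Slc19a1*, 0.0071 for *Slc46a1* and 0.108 for *Ggh*. In TPM in place of CPM, single levels differed by −0.021 (*Slc46a1*, VCR), −0.054 (*Shmt1*, VCR) and 0.0018 (*Ggh*, combination). Leaving out single tumors, log2 fold changes after VCR ran from −0.019 to 0.24 for *Slc19a1*, −0.14 to 0.17 for *Slc46a1*, −0.017 to 0.19 for *Ggh* and −0.052 to 0.083 for *Shmt1*. After RCM1-NP FA they ran from −0.11 to 0.15 for *Slc19a1*, −0.21 to 0.11 for *Slc46a1*, −0.12 to 0.051 for *Mthfd1* and −0.11 to 0.11 for *Shmt1*. After the combination they ran from −0.21 to 0.051 for *Slc19a1*, −0.21 to 0.087 for *Slc46a1*, −0.13 to 0.086 for *Ggh*, −0.11 to 0.062 for *Mthfd1* and −0.067 to 0.096 for *Shmt1*. For these changes the cause was not tested. Fits of only the groups compared were not run for the interaction, which needs all 4 groups. No paired analysis was possible because no mouse number is shared between groups.

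With 3 tumors per group, the smallest exact p was 0.1 and the intervals of *Folr2* and *Slc46a1* spanned about 1 log2 unit. The depth set the limit for *Folr1*.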

Other observations

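*Izumo1r*, a gene of the folate receptor family that does not bind folate well and is known from oocytes and regulatory T cells, was also measured, as part of the list of other uptake genes. It had 2 to 38 counts per tumor. It was at 0.836, 0.189 and 0.136 TPM in vehicle-treated tumors, 1.74, 0.116 and 1.47 TPM after VCR, 0.142, 0.132 and 0.687 TPM after RCM1-NP FA, and 0.250, 0.416 and 1.29 TPM after the combination. Values were spread widely within each group, and the highest of each group were in m1, m4, m9 and m12. A list of 4 regulatory T cell markers, led by *Ikzf2*, summed to 3.54, 2.36 and 1.27 TPM, 3.46, 2.06 and 2.69 TPM, 2.12, 1.03 and 3.19 TPM, and 1.98, 2.34 and 3.50 TPM in the same order. In each group the tumor highest in *Izumo1r* was also the highest in this list. A relation was not tested.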
